A study of Mus musculus with 4 samples.

Results

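The 10 genes described here are Sprr2d, Tgm3, Cpa1, Pnliprp1, Pnliprp2, Klk1, Aqp5, Tph2, Nup62cl and Siglecg, out of 19321 genes in the expression table. They were chosen by their measured levels in supporting cells of the embryonic gonad, high at E11.5 and low afterwards, so the values of that contrast are given as a description only. The data are single-cell RNA profiles of gonads labelled XX from C57BL/6 mice, collected daily from E11.5 up to E14.5 and made with a 3′ tag kit, with 1 library for each of the 4 stages. The labels name no treatment or mutant allele and do not say how many embryos were pooled. With 1 library per stage, a difference between stages cannot be told apart from a difference between libraries, and no p-value is given. Earlier stages are not analysed here, so the data show the descent after E11.5 and not the onset.

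The library labelled E14.5 XX went against its label in one respect. The Y-linked genes Ddx3y, Eif2s3y, Kdm5d and Uty had 0 UMIs in the other 3 libraries. At E14.5 all 4 were present in every class, at a summed 33.6 UMIs per 1000000 in supporting cells and 19.2 in germ cells, although XX cells carry no Y chromosome. Why was not tested. A Y-linked UMI was found in 935 of its 4787 cells, 284 of them among the 1170 supporting cells described next. Of those 284 cells 281 also had a UMI of Xist, the RNA of the inactive X. Cells without a Y-linked UMI can be of the same source, since these genes are low. E14.5 results were recomputed without them, and the values without are given where they differ in a call or by over 1.5 times.

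Supporting cells are the somatic cells that surround the germ cells. They come largely from the epithelium covering the genital ridge, leave the cell cycle early, and in the XX gonad become pre-granulosa cells under WNT4 and related signals. The 10 genes are better known from other tissues: skin and its cornified envelope, exocrine pancreas, glands, serotonergic neurons and B lymphocytes.

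A cell was put in the supporting class when at least 3 of Fst, Wnt4, Wnt6, Irx3 and Runx1 had a UMI, which is a molecule counted once by its barcode. Surface epithelium needed Upk3b with Krt19 or Krt7, interstitial cells Col1a1 with Tcf21, and germ cells at least 3 of 6 germline genes. In stage order there were 2307, 2455, 2086 and 1170 supporting cells among 4913, 4841, 4841 and 4787 cells. Their median depth was 14053, 11976, 11210.5 and 10897.5 UMIs, against 31444, 27911, 25010 and 15701 in germ cells. Cells could meet more than 1 rule, and 217, 381, 466 and 587 did. A total of 175 barcodes occurred in more than 1 library. The supporting class carried Fst at 261, 253, 309 and 165 UMIs per 1000000 UMIs of the class (CPM) and Wnt4 at 287, 242, 260 and 154 CPM, while Foxl2, a later granulosa factor, stayed between 0.112 and 0.250 CPM. RNA of other cell types was present in this class: the summed germ genes stood at 93.6, 197, 113 and 411 CPM, and the erythroid genes at 3137, 4065, 3511 and 6424 CPM. In cells of 1 class only the members' sum still differed between E11.5 and E14.5, by 4.21 on the log2 scale against 4.58 in all. Without E14.5 cells with a Y-linked UMI it differed by 4.54, and with cells that had Xist and no Y-linked UMI by 4.53.

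The 10 loci lie on 8 chromosomes of the mouse build GRCm38 and all are annotated as protein-coding. Pnliprp1 (chr19:58728887-58744169) and Pnliprp2 (chr19:58759719-58777534) are neighbours on the same strand, 15554 bases apart. The other members do not adjoin one another. Siglecg (chr7:43408204-43418358) and Klk1 (chr7:44225360-44229618) share a chromosome only.

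The bases before the start site are shown for Sprr2d, Tgm3 and Tph2 because these 3 carried the same core promoter word at nearly the same place, and for Cpa1, the most abundant member, as one without it. Each line gives the 120 bases before the RefSeq start site in GRCm38.p6, on the strand of the gene, with TATAAA in capitals. They come from chr3:92339020-92339139 (plus strand), chr2:130012220-130012339 (plus), chr10:115185023-115185142 (minus) and chr6:30639098-30639217 (plus).
Sprr2d: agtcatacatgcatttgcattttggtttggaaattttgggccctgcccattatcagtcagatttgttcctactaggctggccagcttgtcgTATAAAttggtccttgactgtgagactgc
Tgm3: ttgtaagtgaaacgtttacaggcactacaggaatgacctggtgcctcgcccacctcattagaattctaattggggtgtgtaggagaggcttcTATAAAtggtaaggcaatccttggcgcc
Tph2: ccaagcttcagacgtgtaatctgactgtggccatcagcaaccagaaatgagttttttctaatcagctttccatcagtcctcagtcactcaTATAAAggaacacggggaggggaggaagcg
Cpa1: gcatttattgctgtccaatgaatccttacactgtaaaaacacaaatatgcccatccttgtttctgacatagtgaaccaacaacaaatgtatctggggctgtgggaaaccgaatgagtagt

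The first base of TATAAA, the TATA box that helps to set where transcription starts, lay at -29 in Sprr2d, -28 in Tgm3 and -30 in Tph2, counted back from the start site. All 10 members had a RefSeq window from 250 bases before to 50 after the start. TATAAA was in 3 of the 10 windows on either strand, and in 13.6% of all 32817 windows. On the gene's own strand and starting 35 to 25 bases before the start it was in the same 3 members and in 1.76% of all windows. GGGCGG, the GC box, was in Pnliprp2, Aqp5 and Nup62cl and in 35.6% of all windows. AAGGTCA, the core of an NR5A1 site, was in Klk1 alone and in 4.72% of all windows. AGATAA, a word of GATA factors, was in Tph2 and 11.2% of windows. Pnliprp2 held TGTGGT, a RUNX word found in 16.8% of windows, and CTTTGA, a word of TCF and LEF factors found in 5251 of the 32817 windows. CANNTG, the E-box, was in 8 members and 72.3% of windows. No searched word was common to all 10, and overlaps between words were not removed. A match is only a run of letters and says nothing about binding.

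Summed over the 10 genes, supporting cells held 724, 85.3, 30.8 and 30.3 CPM in the order of the stages. The exact Poisson 95% intervals, which here and below cover counting error only, were 716 to 733, 82.3 to 88.5, 28.8 to 33.0 and 27.6 to 33.1 CPM. The sum at E11.5 was 8.49-fold that at E12.5 (95% interval 8.17 to 8.82). From E12.5 to E13.5 it differed by a further 2.77-fold, and the E13.5 and E14.5 sums overlapped. Cpa1 gave 35.3% of the sum at E11.5 and 64.7% at E14.5, so the late remainder was mostly Cpa1 (66.9% without cells with a Y-linked UMI). Levels are in CPM with no correction for gene length, since the kit counts 3′ ends.

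**Figure D1:**
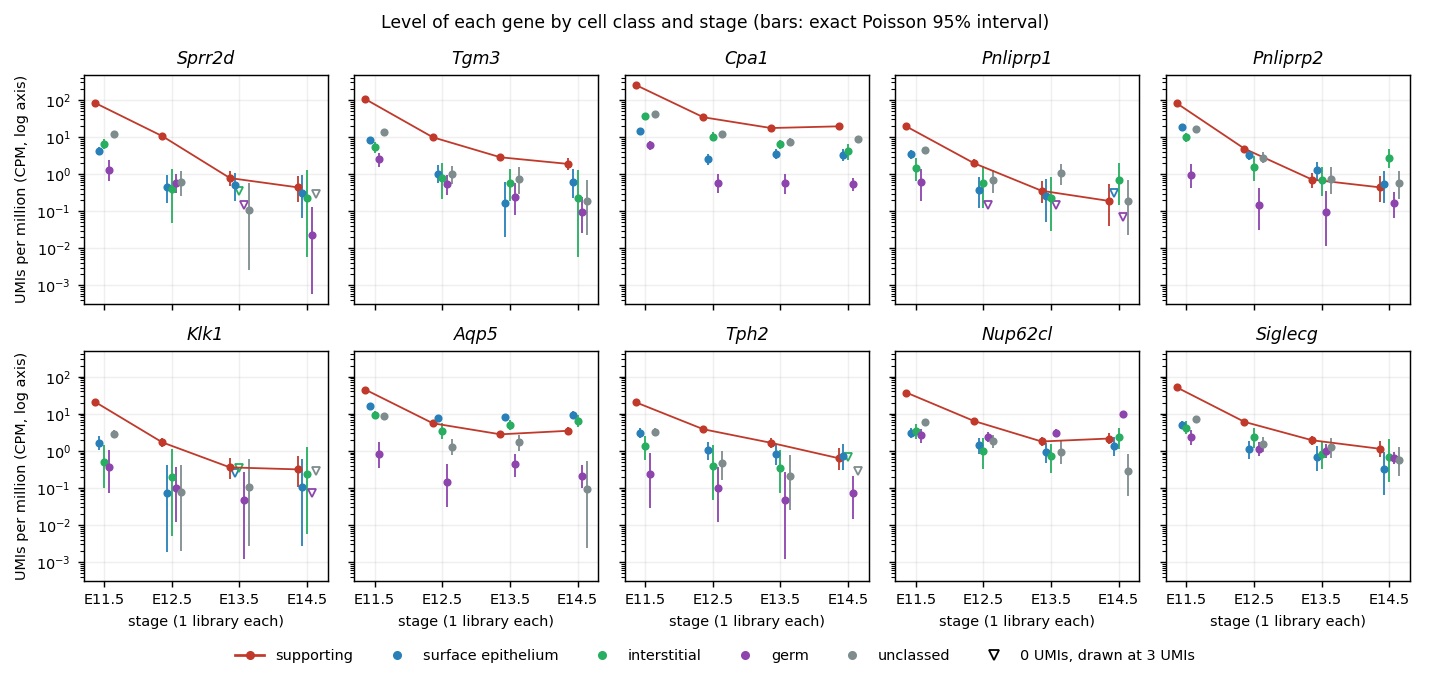
Level of each of the 10 genes, in CPM on a log axis, by stage (1 library each) and cell class; points are summed UMIs of a class, bars are exact Poisson 95% intervals, and open triangles mark 0 UMIs, drawn at the level of 3 UMIs. The supporting line is the highest at E11.5 in all 10 panels, and at E14.5 Nup62cl is highest in germ cells, at 10.05 CPM.

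The cornified envelope pair came first by role. Tgm3, a transglutaminase that cross-links envelope proteins, stood at 107, 9.92, 2.86 and 1.89 CPM in stage order in supporting cells. Sprr2d, a small proline-rich envelope protein and substrate of such enzymes, stood at 84.9, 10.7, 0.786 and 0.442 CPM. The E11.5 library was the high one for both and the order of stages was the same. Between E11.5 and E12.5 the ratio was 10.8-fold for Tgm3 (95% interval 9.62 to 12.1) and 7.97-fold for Sprr2d (7.15 to 8.91).

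They differed in how many cells carried them. After each cell was thinned to 5000 UMIs, Tgm3 had a UMI in 29.9% of E11.5 supporting cells (Clopper-Pearson 95% interval 28.1 to 31.8) and Sprr2d in 9.75% (8.57 to 11.04). The shares without thinning were 45.8% and 14.52%. Germ cells of the same library, taken as the background, had them in 2.34% and 0.391%. Sprr2d UMIs sat in few cells: the top 1% of supporting cells, 23 cells, held 33.6% of its UMIs at E11.5, and 1 cell held 64. For Tgm3 the same fraction of cells held 10.2%. At E12.5 the top 1% held 87.1% of all Sprr2d UMIs. Reads of the near-identical Sprr2 paralogs may be split among them, so the level of Sprr2d itself is uncertain. Of the other Sprr2 genes, Sprr2a3 had 6.44 CPM at E11.5 and 0.438 at E12.5, and Sprr2e had 2.58 and 0.321.

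Of 16 further cornified envelope genes in the table, Lor was the one with enough UMIs to compare. Lor, which encodes the envelope protein loricrin, stood at 378, 76.8, 34.7 and 23.2 CPM in stage order. Of the epidermal keratinocyte genes, Krt14 had 1.74 and 1.46 CPM and Krt10 37.3 and 30.7 CPM at E11.5 and E12.5. The summed keratinocyte list was 41.1, 35.2, 41.4 and 44.8 CPM.

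The digestive enzyme group comprised a carboxypeptidase and a pair of lipase-related proteins. Cpa1, which trims C-terminal residues from dietary proteins, was the most abundant member, with 256 CPM at E11.5, then 34.4, 17.6 and 19.6. Pnliprp2, a lipase of galactolipids and phospholipids, stood at 81.8, 4.87, 0.715 and 0.442 CPM, and Pnliprp1, its relative with little known lipase activity, at 19.5, 1.98, 0.357 and 0.189 CPM. The E11.5 to E12.5 ratio of Pnliprp2 was 16.8-fold (14.4 to 19.7), the highest point value of the 10. Its interval lay apart from those of Cpa1 (7.44-fold, 6.999 to 7.91) and Pnliprp1 (9.81-fold, 7.64 to 12.8) and overlapped that of Klk1. At E14.5 Pnliprp2 had 7 UMIs in supporting cells, of which 2 were in cells without a Y-linked UMI (0.170 CPM).

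Cpa1 was in 30.3% of thinned E11.5 supporting cells, Pnliprp2 in 13.1% and Pnliprp1 in 5.55%, and in 3.91%, 0.781% and 0.391% of germ cells. Unthinned, the supporting shares were 43.3%, 20.8% and 10.8%. Cpa1 and Pnliprp2 were uneven among the carrying cells, with up to 141 and 76 UMIs in 1 cell.

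Other digestive enzyme genes were also in the table. Pnlip, the main pancreatic lipase, stood at 92.3, 12.1, 5.86 and 3.79 CPM, and was past the rule of size described below. It lies 47088 bases from Pnliprp1, so that 3 genes of the lipase cluster on chromosome 19 had this stage pattern. Beyond Pnliprp2, Hspa12a had 1.65, 1.34, 1.68 and 1.83 CPM, and 1700019N19Rik, with 6, 2, 0 and 0 UMIs, was too low to compare. Clps, the cofactor of pancreatic lipase, had 0.252 CPM and Amy1, an amylase, 0.0280 CPM at E11.5, while Cela1, an elastase, had 0.897 CPM at E11.5 and 9.22 at E14.5.

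Klk1 is a serine protease that releases kinins in glandular tissues. It stood at 21.2 CPM at E11.5 and at 1.69, 0.357 and 0.316 CPM later, 12.53-fold between E11.5 and E12.5 (9.59 to 16.7). It had a UMI in 8.50% of thinned E11.5 supporting cells and in 0.391% of germ cells (17.8% and 1.17% unthinned). Klk1 belongs to a family with close copies, so its counts are uncertain where reads are shared. The 5 other kallikreins in the table summed to 15.4 CPM at E11.5, and none was past the rule of size.

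Aqp5, the water channel of secretory glands, was also present in the surface epithelium. It stood at 45.1, 5.54, 2.79 and 3.47 CPM in supporting cells, and at 16.7, 7.59, 8.06 and 9.50 CPM in the surface epithelium. From E13.5 on it was higher in the surface epithelium than in supporting cells, with intervals apart. Interstitial cells had 9.33, 3.51, 4.93 and 6.48 CPM. Thinned shares at E11.5 were 13.2% of supporting, 7.96% of surface epithelium and 0.391% of germ cells (25.1%, 17.1% and 2.73% unthinned). Its neighbour Aqp2, 6483 bases away, had 6.64 CPM at E11.5 and 1.98 at E12.5 in supporting cells. Racgap1, 25667 bases away on the other side, had 21.3 and 17.9 CPM. With 2 genes taken on each side of every member, 13 neighbours in the table were not members. Of these, 2 could be compared and 0 were higher at E11.5 than at E12.5 by the rule of size.

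Tph2 encodes the neuronal tryptophan hydroxylase, the first step of serotonin synthesis. It had 20.4, 3.82, 1.64 and 0.632 CPM and a UMI in 6.72% of thinned E11.5 supporting cells, against 0 of 256 germ cells, which allows a share of up to 1.17% by a floor of 3 cells and 1.43% by the Clopper-Pearson limit. The limit is on cells with a UMI, not on cells expressing the gene. Without thinning the shares were 13.96% and 0.781%. Its E11.5 to E12.5 ratio, 5.34-fold (4.43 to 6.49), was the lowest of the 10, with an interval that overlapped that of Nup62cl (5.84-fold). Between E13.5 and E14.5 it was 2.60-fold higher (1.30 to 5.79), where the intervals of the other 9 included equality. Without E14.5 cells with a Y-linked UMI the Tph2 ratio was 2.41 (1.13 to 5.92), and those of Tgm3 (1.77, 1.06 to 3.09), Pnliprp2 (4.20, 1.02 to 37.0) and Cpa1 (0.844, 0.723 to 0.988) left out equality too.

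In the same pathway Ddc, the decarboxylase that follows, had 3.87 and 4.26 CPM at E11.5 and E12.5, Slc6a4, the serotonin transporter, 0.280 and 0.379 CPM, and Tph1, the peripheral hydroxylase, 0 UMIs at E11.5. Of 12 other genes of this list, 3 could be compared and none was past the rule of size. Maoa, which breaks serotonin down, was the nearest, with 52.9 and 25.0 CPM.

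Nup62cl is named for its likeness to the C-terminal part of the nucleoporin NUP62. It stood at 37.3, 6.39, 1.79 and 2.15 CPM in supporting cells, in 13.9% of thinned E11.5 cells (28.7% unthinned). Nup62 itself had 55.0, 51.8, 49.4 and 55.0 CPM. In germ cells the order of stages was another one: Nup62cl had 2.63, 2.36, 3.08 and 10.05 CPM, and its thinned share there was 0.781%, 1.17%, 2.25% and 5.43%. It made up 85.1% of the summed members in E14.5 germ cells, which were the shallowest germ cells.

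Siglecg is an inhibitory sialic acid receptor known from B cells. It had 51.5, 6.04, 1.93 and 1.14 CPM in supporting cells and a UMI in 17.0% of thinned E11.5 cells, against 0.781% of germ cells (30.9% and 7.42% unthinned). The blood cell marker Ptprc was at 0.168 CPM in the same cells, Cd79a was at 1.26 CPM, and the 6 immune markers summed to 4.09 CPM. Siglecf, a neighbouring family member 48717 bases away, had 16.9, 3.88, 3.11 and 1.96 CPM.

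To set the members beside other genes, each pair of stages was compared by a rule of size: 50 or more UMIs over both pools, 20 CPM or more in the larger value, a 4-fold or larger ratio, and Poisson intervals that do not overlap. In supporting cells 28 of 5838 genes (0.48%) were higher at E11.5 than at E12.5 by this rule, and they held all 9 members that reached the minimum levels. Pnliprp1, at 19.5 CPM, missed the 20 CPM minimum. The same 9 were among 57 genes (0.964%) against E13.5 and 70 genes (1.14%) against E14.5. The members were chosen as high at E11.5 and low at all later stages, so nothing is read from these 3 counts. The E11.5 pool is shared by these 3 comparisons. The median log2 ratio of the 9 was 3.02, 4.74 and 5.50 against E12.5, E13.5 and E14.5, beside 0.09, 0.13 and 0.02 over all genes compared. Just inside the ratio of 4 lay Gadd45g (4.85-fold), Il15 (4.75) and AW551984 (4.48), and just outside Phlda1 (3.99), Pglyrp1 (3.90) and Gm21083 (3.84), none of them a member.

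By ratio the 9 members ranked from the third (Pnliprp2) to place 23 (Tph2) of the 28. The 10 other genes with the highest ratios were Ppbp, Pf4, Cyp11a1, Plac1, Spp1, Pnlip, Hspa1a, Chst4, Pcdh11x and Stc2. Ppbp and Pf4 are platelet chemokines and stood at 32.2 and 97.7 CPM at E11.5, against 0.204 and 3.06 CPM at E12.5. Cyp11a1, the enzyme that opens steroid synthesis from cholesterol, had 52.4, 4.52, 1.82 and 1.01 CPM. Plac1, known from the placenta, had 97.1, 8.90, 6.08 and 5.49 CPM. At E11.5 8.19% of supporting cells had a UMI of Pf4, Ppbp or Alas2, and 2.65% at E12.5; the part of such RNA in these differences was not tested.

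Outside the supporting class, Cpa1 was the 1 member past the rule of size between stages. In interstitial cells it had 36.6, 10.3, 6.46 and 4.17 CPM in stage order, and was 5.68-fold higher at E11.5 than at E13.5 and 8.80-fold higher than at E14.5, beside 0.153% and 0.294% of genes. These pools include cells that are also supporting, 35 of 406 at E11.5. Without them Cpa1 had 15.6, 9.85, 4.01 and 3.24 CPM, under the minimum level, so that no call was made. In cells of no class it had 41.6, 12.51, 7.36 and 8.67 CPM, past the rule against E13.5 (0.246% of genes) and E14.5 (1.32%). None of these cells is also supporting. The other 9 did not reach the minimum levels in either class. Summed over the 10, surface epithelium had 79.7, 18.9, 16.3 and 16.8 CPM, interstitial cells 78.9, 21.1, 14.8 and 17.8, and germ cells 17.8, 5.71, 5.53 and 11.8. Without cells that are also supporting these sums were 41.6, 14.8, 14.9 and 15.6 CPM in surface epithelium, 37.4, 17.9, 12.1 and 16.8 in interstitial cells, and 13.7, 4.36, 4.95 and 11.4 in germ cells. In both versions the highest sum of each of these classes was at E11.5 by point value. In germ cells without cells that are also supporting, the E11.5 interval, 11.3 to 16.6 CPM, included the E14.5 value.

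Within the E11.5 library, cells of both classes were left out and supporting cells were set against each other class. The members were chosen for a high E11.5 supporting level, which is one side of each of these comparisons and the side through which they reached the minimum level. The counts are therefore a description and are not read against the shares of all genes given with them. Against surface epithelium 8 of the 9 members compared were higher by the rule of size, beside 3.8% of all 5971 genes. Aqp5, at 45.7 against 13.2 CPM, was 3.47-fold (2.93 to 4.13) and missed the ratio of 4. Sprr2d was the most uneven, at 89.2 against 1.06 CPM or 84.0-fold (48.0 to 163), followed by Tgm3 at 54.5-fold (36.3 to 86.1). Pnliprp2 was 7.04-fold (5.92 to 8.43).

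Against interstitial cells all 9 were higher, beside 3.94% of genes, with ratios from 5.46-fold for Aqp5 to 64.5-fold for Sprr2d. Klk1 had 0 UMIs in the 371 interstitial cells and was at least 37.8-fold higher in supporting cells, set against a floor of 3 UMIs over that group. Against germ cells all 9 were higher as well, beside 17.2% of genes, and the lowest ratio was that of Nup62cl (15.4-fold, 9.82 to 25.7). Against cells of no class they were higher by 4.86-fold (Pnliprp2) to 7.64-fold (Tgm3), beside 1.89% of genes. Pnliprp1, under the minimum level in all of these, was 4.43-fold higher than in cells of no class and 17.2-fold higher than in surface epithelium. At E12.5 and E14.5, with cells of both classes left out, Cpa1 alone reached the minimum levels, so the other members were not compared. By the rule Cpa1 was higher in supporting cells than in surface epithelium at E12.5 (2.36% of genes) and E14.5 (1.36%). It was also higher than in germ cells at both (15.4% and 14%) and than in interstitial cells at E14.5 (2.86%). Against interstitial cells and cells of no class at E12.5 it was compared and was not past the rule.

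Detection was also counted by the number of supporting markers. The genes were chosen as high in E11.5 cells with at least 3 of these 5 markers. The differences between these groups are therefore largely set by that choice and are a description. At E11.5, 3 or more of the 10 genes were detected in 0 of 474 unclassed cells with no supporting marker, in 2 of 480 cells with 1 and in 38 of 434 cells with 2 (8.76%, 6.27 to 11.8). In supporting cells with 3, 4 or 5 markers the shares were 15.6%, 24.3% and 24.6%. Median depth ran from 13297 to 14545.5 UMIs over these groups. Of the 531 E11.5 cells with 3 or more of the genes, 490 were supporting, 40 unclassed and 1 neither.

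**Figure D2:**
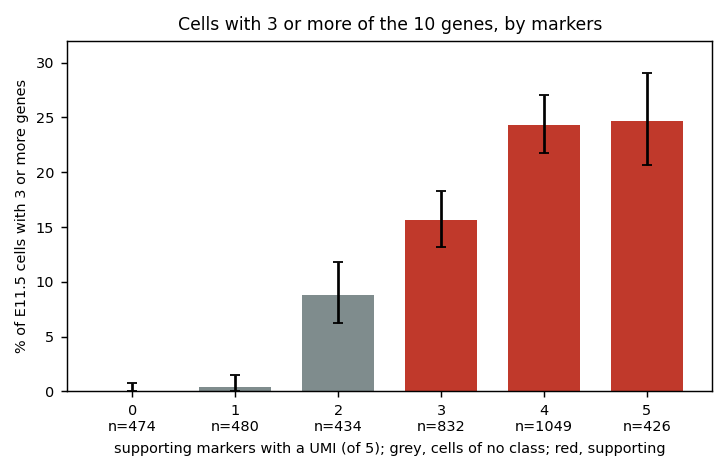
Share of E11.5 cells with 3 or more of the 10 genes (thinned to 5000 UMIs), in percent, by the number of the 5 supporting markers with a UMI; bars are Clopper-Pearson 95% intervals and n is the number of cells. Grey bars are cells of no class and red bars supporting cells. The share is 8.76% with 2 markers and 24.6% with 5. The genes were chosen for their level in E11.5 cells with at least 3 of these markers.

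Counted cell by cell, 70.9% of thinned E11.5 supporting cells had at least 1 of the 10 genes (69.0 to 72.8), 21.2% had 3 or more and 3.34% had 5 or more. The most in 1 cell was 7. At E12.5 24.2% had at least 1 and 0.611% had 3 or more, which is 15 cells. No supporting cell had 3 or more at E13.5 (0 of 2086) or E14.5 (0 of 1170). A floor of 3 cells allows shares of up to 0.144% and 0.256%, and the Clopper-Pearson limits are 0.177% and 0.315%. In germ cells at E11.5, 8.59% had at least 1 and 0.391% had 3 or more. Cells of no class had 2.88% with 3 or more, surface epithelium 0.770% and interstitial cells 0.739%. The surface epithelium, interstitial and germ shares rest on 6, 3 and 1 cells. Only 1 E11.5 cell with 3 or more was neither supporting nor unclassed, so most of these cells also met the supporting rule.

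**Figure D3:**
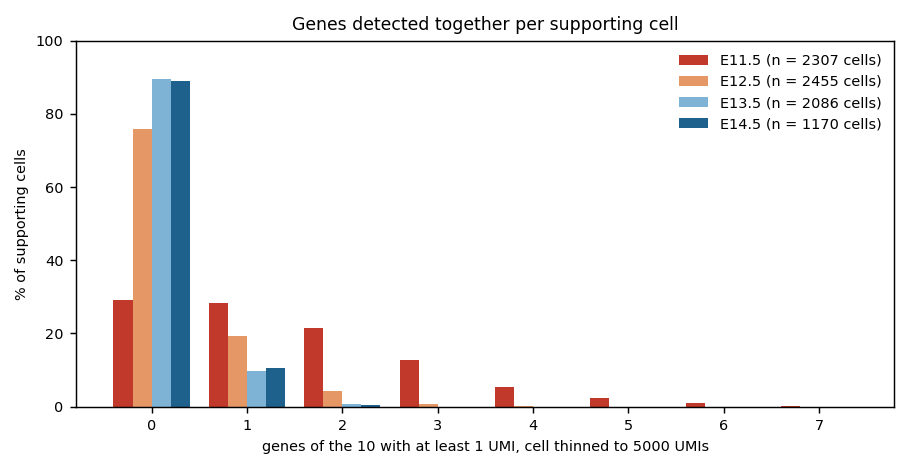
Percent of supporting cells (y axis) by the number of the 10 genes with at least 1 UMI after thinning to 5000 UMIs (x axis), for the 4 stages; bars are shares of the cells given in the legend. At E11.5 cells spread from 0 to 7 genes, while at E13.5 and E14.5 none reached 3.

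Co-detection was counted within the E11.5 supporting cells. For each of the 45 pairs, the share of cells with the gene later in the list was compared between cells with and without the earlier one. In 19 pairs it was higher with the other gene, with intervals that did not overlap, and in 42 the ratio was above 1 (0.97 to 2.83, median 1.42). Tgm3 was the gene most shared. Siglecg was in 31.2% of cells with Tgm3 and 11.01% of cells without, Sprr2d in 17.5% and 6.43%, and Klk1 in 14.3% and 6.00%.

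The neighbouring lipase genes were also found together, Pnliprp1 being in 13.9% of cells with Pnliprp2 and 4.29% of cells without. Given Pnliprp2, only Pnliprp1 and Siglecg (22.5% and 16.2%) had intervals apart, and Tgm3 was at 1.19 times the share without it. Tph2 was in 6.56% of cells with Aqp5 and 6.74% of cells without. Klk1 was in 8.39% of cells with Tph2 and 8.50% of cells without, but at full depth in 25.2% and 16.6%, with intervals apart. Co-detection over all E11.5 cells was stronger, with 42 pairs apart and a median ratio of 2.46, as classes with few of these genes then enter. Cells are not replicates, and these ratios describe 1 library.

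**Figure D4:**
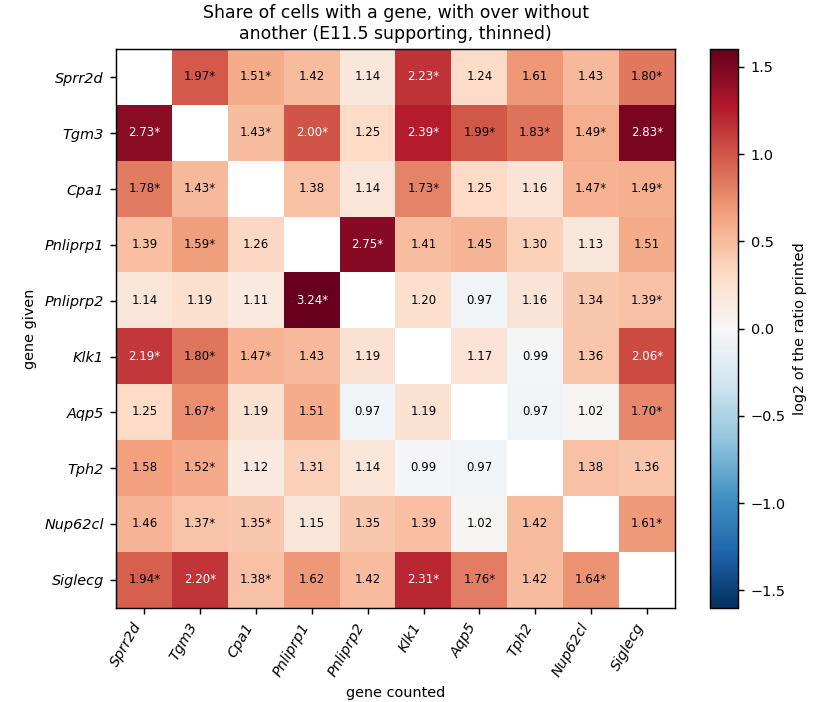
Ratio of the share of cells with the gene on the x axis among cells with the gene on the y axis to that among cells without it, in 2307 E11.5 supporting cells thinned to 5000 UMIs; colour is log2 of the ratio and an asterisk marks Clopper-Pearson 95% intervals that do not overlap. The row of Tgm3 and the pair Pnliprp1 and Pnliprp2 hold the highest ratios, up to 3.24.

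The other genes of the same cells were then compared between the 490 E11.5 supporting cells with 3 or more members and the 671 with none, at full depth. Median depth was 13882.5 and 14353 UMIs. The 10 genes with the highest ratio were Cyp11a1, Vav3, Aldh3b1, Stc2, Plac1, Adamts9, Adam8, Ttc38, Phlda1 and Myl1. Cyp11a1 stood at 123 against 14.47 CPM, 8.51-fold (7.18 to 10.1). At a ratio of 2 with intervals apart, 76 of 2944 genes (2.58%) were higher with members and 53 (1.8%) lower.

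For the gene lists a gene was counted as higher or lower when the 95% interval of its ratio left out equality, whatever its size. Many genes met this: of 13475 genes with at least 10 UMIs, 18.5% were higher with members and 20.4% lower. Of the 10 supporting genes at that depth 9 were higher, among them the cell cycle inhibitor Cdkn1b (105 against 51.7 CPM), the orphan receptor Nr0b1 (102 against 51.2) and the WNT receptor Lgr5 (10.96 against 3.48). Irx3, one of the 0.154% of genes higher at E12.5 than at E11.5 by the rule of size, was lower (50.1 against 71.3 CPM). Since 5 of these genes defined the class, their count is partly set by the rule. The early gonad list was mixed, with 4 of 9 genes higher and 2 lower. Its gene Gadd45g, needed for timely Sry expression in XY gonads, was among the higher ones, with 1297 against 504 CPM.

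Of the 12 cell cycle genes 10 were lower with members, with Mki67 at 2.19 against 22.0 CPM, Top2a at 16.8 against 113 and Ccna2 at 7.53 against 52.2. The remaining 2 were the inhibitors Cdkn1a (171 against 78.3 CPM) and Cdkn1c (4345 against 2844), which were higher. The median log2 ratio of the list was -1.03, beside 0.04 over all genes compared, whereas its summed level was higher with members (4896 against 3748 CPM) because Cdkn1c dominates the sum. Of 6 coelomic epithelium genes 5 were lower, with Upk3b at 3.01 against 31.9 CPM and Krt19 at 1.23 against 7.69. By the same count 5 of 6 interstitial genes were lower and 1 higher, and 3 of 4 endothelial genes were lower. The difference was thus not particular to coelomic epithelium genes.

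The members' own families were mixed by the same count. Higher with members were 3 of 7 other cornified envelope genes with 10 UMIs (1 lower), 4 of 6 digestive enzyme genes (1 lower), 3 of 4 aquaporins, 4 of 8 serotonin genes and 1 of 1 siglec. No kallikrein of 2 was higher and 1 was lower (12.9 against 17.4 CPM over the 5 in the table), and 0 of 8 nucleoporins were higher and 3 lower. Siglecf was at 34.0 against 6.78 CPM, Aqp2 at 11.9 against 2.75, Pnlip at 165 against 57.4 and Gch1, which makes the cofactor of tryptophan hydroxylase, at 16.6 against 5.86. Lor was 1.79-fold higher (481 against 269 CPM).

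The cells with none also held more RNA of other cell types. Germ genes summed to 209 CPM against 26.0 in cells with members, erythroid genes to 4950 against 801, and the platelet gene Pf4 stood at 314 against 2.33. Next, only cells of 1 class were kept, without those with a UMI of Pf4, Ppbp or Alas2. Cells with 2 or more germ markers or with globins above 1% of UMIs were also left out. Cells with less germ or globin RNA stayed in, and 430 and 529 cells remained. There 10 of 12 cell cycle genes were still lower with members (Mki67 1.596 against 16.2 CPM, Top2a 17.2 against 74.9) and 8 of the 11 supporting genes in the table higher. Cyp11a1 stood at 126 against 17.3 CPM and Upk3b at 1.92 against 7.51.

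**Figure D5:**
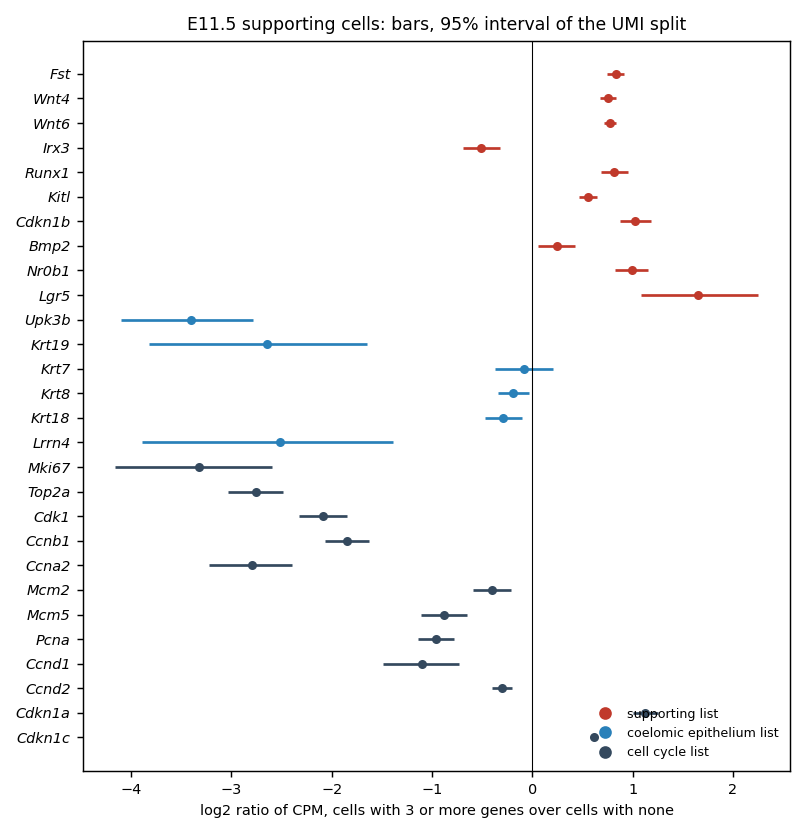
Log2 ratio of the level (CPM) in 490 E11.5 supporting cells with 3 or more of the 10 genes over 671 with none, for genes of 3 lists with at least 10 UMIs over both groups; bars are 95% intervals from the binomial split of the UMIs. Cell cycle genes lie left of 0 except Cdkn1a and Cdkn1c, and 9 supporting genes lie right of 0.

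Across the 16 combinations of named class and stage, the genes whose log2 level was most like the mean of the 10 were Cyp11a1 (Pearson r 0.98), Slitrk1, 6030498E09Rik, Prpf38a, Ifrd1, Chst4, Ppcs, Cst9, Spp1 and Ldhb (0.91), among 7930 genes with enough UMIs. The points share libraries and depth, and they include the supporting levels by which the members were chosen. A high r between members is therefore partly set by that choice, and r is a description. Each member was set likewise against the mean of the other 9. Pnliprp1 (0.98), Tgm3 (0.97) and Sprr2d (0.96) followed the rest closely, and Nup62cl (0.69) and Aqp5 (0.71) least, the former being higher in late germ cells and the latter in the surface epithelium. With E14.5 cells with a Y-linked UMI left out, 8 of the 10 similar genes were again among the 10 most like the mean, and Chchd3 and 2310033P09Rik took the places of Chst4 and Spp1.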

How the data were processed

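The deposited table gives, for each gene and cell, the natural log of 1 plus UMIs per 10000, as computed by the authors. Reads were processed with Cell Ranger 2.2.0 on mm10, per the submitters' processing notes. Whole UMIs were recovered from 100% of 69792436 values (relative tolerance 1e-06) in 19321 genes and 19387 cells, and used in place of the assumed counts. Cells over 20% mitochondrial UMIs (3, 1, 1 and 0) were left out. No doublet caller was run; cells of several classes and the 5% of cells with most UMIs were left out as alternatives. UMIs were summed per class and library, with exact Poisson, binomial and Clopper-Pearson 95% intervals. Shares were taken after thinning to 5000 UMIs (seed 1; 0 cells were shallower). Libraries held 69458291 to 80377418 UMIs.

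Counts were simulated for supporting cells at E11.5 against E12.5 (19321 genes). The rule of size recovered 100% of 200 genes changed 8-fold and 100% of those changed 5-fold, with 0 unchanged genes called. Both simulated pools were Poisson draws from a shared profile, and only genes at 20 CPM or more were changed. They hold no difference between libraries, so the result checks counting error only and gives no rate of false calls between real libraries.

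The members and gene lists were chosen with earlier results of these data known. Named genes are the members, the listed families and markers, the 10 highest ratios at E11.5, the 10 most similar patterns, the 10 highest and 10 lowest ratios between cells with and without members, and neighbours. Genes within 100 kb, the place of TATAAA and the E14.5 pools without Y-linked UMIs were added after seeing the data. So were the classes without cells that are also supporting. For cells with and without members, those of 1 class and those within the stated limits of germ, platelet and erythroid RNA were added then too. Python 3.11.15, numpy 2.4.6, scipy 1.17.1 and matplotlib 3.10.9 were used.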

Additional observations from a re-analysis of the deposited data

Results flagged for a closer look

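The level of Nup62cl between E11.5 and E14.5 ran opposite ways in germ cells and supporting cells. Surface epithelium went the way of supporting cells only with cells that are also supporting kept in. Without them it had 1.86 CPM at E11.5 (21 UMIs) and 1.83 CPM at E14.5 (9 UMIs). The ratios that follow are of the pools with such cells. The log2 ratio of E11.5 over E14.5 was -1.93 in germ cells (95% counting interval -2.62 to -1.31), against 4.12 in supporting cells (3.63 to 4.66) and 1.15 in surface epithelium (0.22 to 2.17). Without E14.5 cells with a Y-linked UMI the ratios were -1.93, 3.97 and 1.29. The difference between classes was not tested, since each stage is 1 library. Germ cells carried fewer UMIs at E14.5 than at E11.5 (medians 15701 and 31444), and levels are per 1000000 UMIs of the class.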

How the results depend on the processing

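All 10 members were higher at E11.5 than at E12.5 in supporting cells under all 6 alternatives run for single genes, with log2 ratios from 2.30 to 4.17. Log2 of the summed members was 3.09 against E12.5, 4.55 against E13.5 and 4.58 against E14.5. It moved to 2.98 and 4.21 against E12.5 and E14.5 in cells of 1 class only, to 4.78 against E14.5 with median-of-ratios scaling, which moves all genes by 0.20 there, and to 4.69 against E13.5 with the mean of the cells' own CPM. Against E14.5 it was 4.54 without cells with a Y-linked UMI. The 28 genes higher at E11.5 became 197 with no CPM minimum and 131 at a ratio of 2. The 9 higher at E12.5 became 179 and 123, 14 in cells of 1 class and 15 without the cells of most UMIs. Members past the rule of size numbered 9 or 10 under the 8 alternatives, among 27 to 197 genes higher at E11.5. The members were chosen from this contrast, so their counts and ratios here are a description only. The share of E11.5 supporting cells with 1 or more members was 75.1% with 4 markers required, 87.3% without thinning and 57.7% thinned to 2500 UMIs. The share with 3 or more was 24.4%, 46.2% and 10.7%. At E12.5 the share with 1 or more was 26.2% in cells of 1 class, 39.7% without thinning and 14.9% thinned to 2500. Co-detected pairs numbered 42 over all E11.5 cells. Coelomic epithelium genes lower with members fell from 5 to 3 when 1 or more members sufficed. The cause was not tested, other than that thinning removes UMIs and lower minimums admit more genes. No paired analysis was possible because each stage has 1 library and no replicate number. Counting intervals do not cover the spread between embryos, and stage and library cannot be told apart.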
